A study of Homo sapiens with 6 samples.

Results

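PC9 is a line of human lung adenocarcinoma that depends on a mutant, constantly active EGFR for its growth, and RNA sequencing measured polyadenylated RNA in 3 libraries of untreated parental PC9 cells and 3 libraries of dacomitinib-resistant PC9 cells. The resistant cells came from the parental line by raising dacomitinib, a covalent inhibitor of EGFR-family kinases, from 1 pM to 100 nM over 6 months, and they were sequenced in 100 nM of the drug, so resistance and drug exposure cannot be told apart. The genes described here are 49 genes of DNA replication, deoxynucleotide synthesis and entry into S phase, of 26485 genes listed in the authors' deposited table, found by their symbols. All 49 were found, and all 49 had reads and an adjusted p-value.

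That table holds the authors' own comparison, with 1 row per gene and no values per library. Each log2 fold change is given with its standard error (SE), and folds above 0 are taken to mean more transcript in resistant cells. The headers do not state the direction, so this reading rests on the design, which sets resistant against parental cells. Group means are fitted mean normalized counts, worked out from each gene's mean count and fold in that table. A gene is called where its adjusted p is under 0.05. The mean normalized counts of all genes per the authors' deposited table summed to 3.97e+06 per library, and the median SE in log2 units was 0.15 where the mean count was at least 50 and 0.62 below it. Of the markers of lung adenocarcinoma cells, EPCAM, KRT7, KRT8, KRT18 and KRT19 had mean counts from 2855 to 22535 per the authors' deposited table. MUC1 was listed at 32.0, NKX2-1 at 0 and NAPSA and SFTPB at 2.12 and 0.154. KRT7, EPCAM and MUC1 were called higher and KRT8 and KRT18 lower. Of 9 fibroblast markers, PDGFRB and COL1A1 were called higher and the other 7 had mean counts of at most 0.140, and of 5 immune cell markers the highest mean count was 4.43, for LYZ, per the authors' deposited table. The part of these marker differences in the results was not tested.

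DNA replication starts at origins. The origin recognition complex, with CDC6 and CDT1, loads the MCM2-7 helicase ring onto DNA in G1, and geminin blocks CDT1 afterwards. In S phase CDC45 and the GINS complex join the ring to form the active helicase, primase and DNA polymerases alpha, delta and epsilon copy the strands, and ribonucleotide reductase and thymidylate synthase supply deoxynucleotides. Many of these genes are targets of E2F transcription factors, which retinoblastoma proteins hold inactive until D-type cyclins, induced by EGFR and MAPK signalling, and cyclin E release them.

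Calls fell unevenly over the roles, with 5 of 6 genes of the helicase and 3 of 6 of its activation lower, against 1 of 8 for origin recognition and licensing and 0 of 6 for the clamp and its loader. The difference between roles was not tested. Of the 49 genes, 13 were lower, 1 was higher and 35 did not pass per the authors' deposited table. The share called, 28.6%, is close to the background of 28.2% over all 13494 genes tested, where lower calls made up 14.8% and higher calls 13.3%. Among the 40 members with a mean count of at least 50, 35.0% were called, against 41.5% of the 6952 such genes per the authors' deposited table, where 23.3% were lower and 18.2% higher. The direction was uneven, with 36 of 49 members (73.5%) below 0 against 48.4% of all genes tested. With a mean count of at least 50, 70.0% of members and 53.0% of all genes were below 0. The median log2 fold of the members was -0.18, beside 0.02 for all genes tested. For genes with a mean count of at least 50 it was -0.16 among members and -0.03 among all. Setting RPA1, the member with a fitted count under 1 in a group, to a count of 1 left the median at -0.18. Counts are normalized between libraries, and in cultured cells fewer cells in S phase and less RNA per S-phase cell cannot be told apart.

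**Figure D1:**
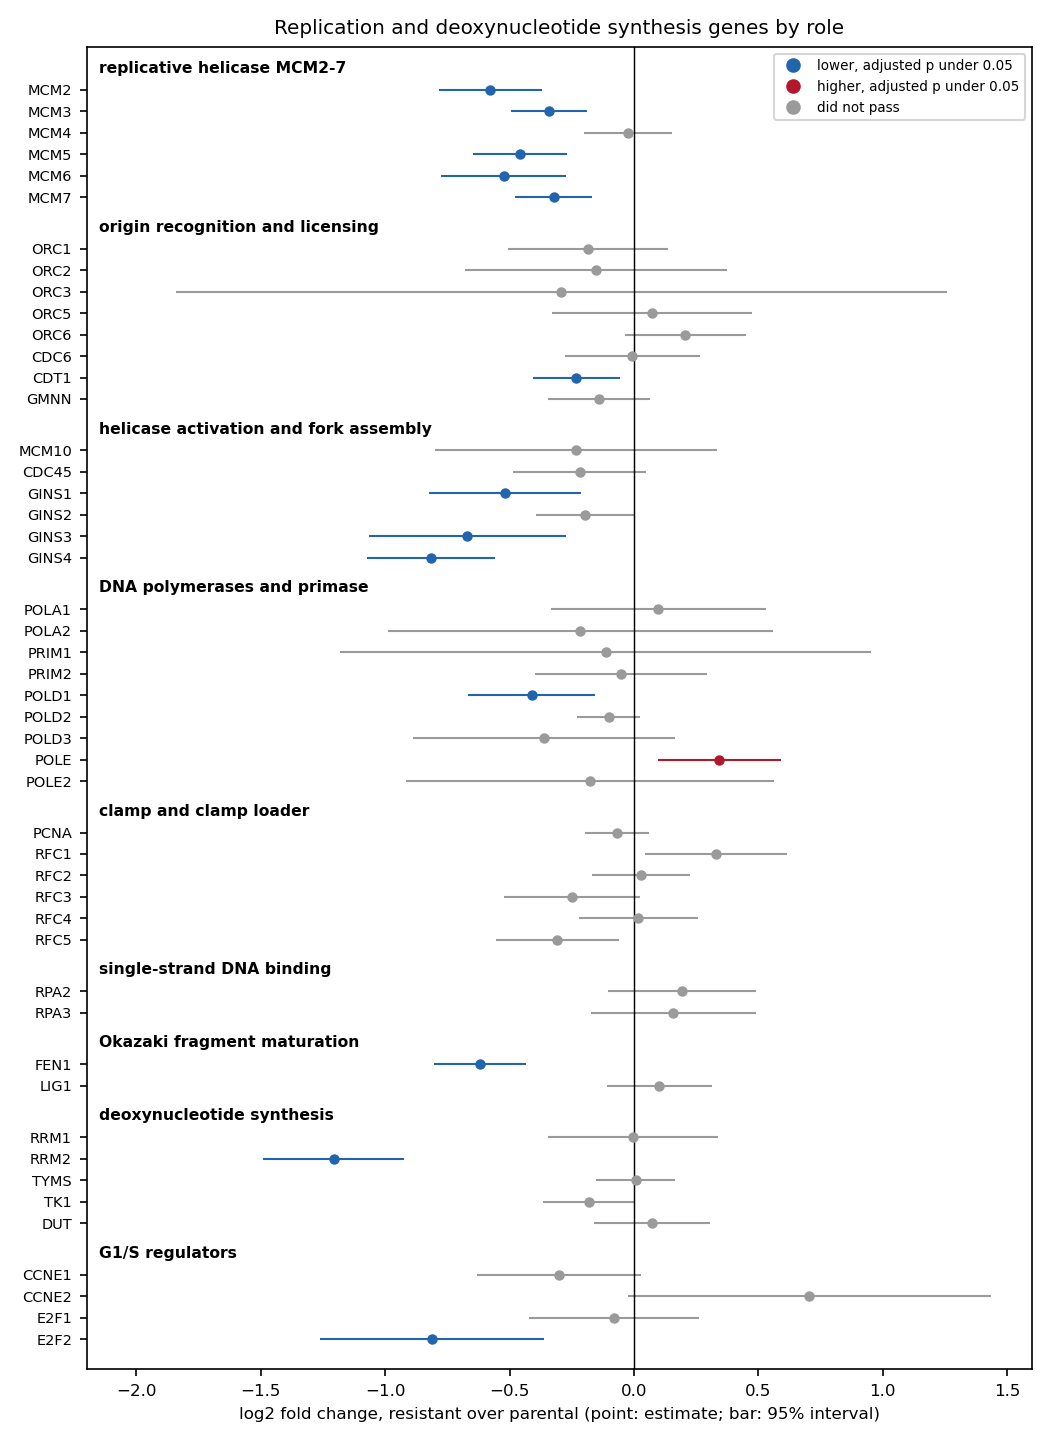
Log2 fold change of resistant over parental cells (x axis) for 48 of the 49 members, grouped by role, each with its 95% interval, with RPA1 left out because its fitted count in resistant cells was under 1. RRM2 stands farthest left at -1.21, 5 of 6 MCM2-7 genes and 3 of 4 GINS genes are called lower, and POLE is the 1 gene called higher.

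Many promoters of these genes hold an E2F motif. Many of the genes are known targets of E2F factors, so its share among them is a description and not independent evidence. E2F factors bind sites such as TTTCCCGC, TTTCGCGC, TTTGCCGC and TTTGGCGC, which were searched on both strands from 250 bases before to 50 bases after the transcript start in RefSeq promoters of GRCh38.p14. Of the 49 members, 42 had an entry, and CCNE2, GINS4, MCM4, MCM5, POLD3, RPA2 and RPA3 did not. At least 1 of the 4 sequences was in 20 of 42 member promoters (47.6%), against 3.33% of all 27305 promoters and 5.42% of the promoters of tested genes. In a list of other replication fork and origin factors it was in 6 of 31 (19.4%), and in 1 of mitosis genes in 2 of 27 (7.41%). It was in 8 of 11 promoters of members called lower, in 11 of 30 of those not called and in that of POLE, which was called higher. The members with a match had a median log2 fold of -0.22 and the 22 without had -0.15, so both groups sat slightly below 0. A match describes the letters only and does not show binding. Of 27 matches in members, 19 began between 60 bases before and 10 bases after the start, in 17 genes.

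The sequences below show matches, in capitals, in the members with the largest folds among called genes that hold one wholly upstream of the start. Each is read 5′ to 3′ on the gene's strand. GINS3, whose match begins 5 bases before the start and runs past it, is left out, as are MCM2 and GINS1, whose matches begin after the start. MCM3 and MCM7 each have a further match, from 4 and 187 bases before the start, that lies outside the printed stretch. That of MCM6 holds a pair of 12-base blocks, in each of which a TTTGGCGC and an opposite-strand TTTCGCGC overlap.
E2F2: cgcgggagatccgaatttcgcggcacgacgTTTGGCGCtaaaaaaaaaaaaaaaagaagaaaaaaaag
MCM6: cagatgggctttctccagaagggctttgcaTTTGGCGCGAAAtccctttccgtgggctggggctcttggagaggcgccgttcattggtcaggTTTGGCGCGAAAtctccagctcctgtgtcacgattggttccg
POLE: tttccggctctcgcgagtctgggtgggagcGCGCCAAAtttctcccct
MCM3: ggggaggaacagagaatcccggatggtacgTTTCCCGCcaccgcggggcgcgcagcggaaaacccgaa
MCM7: ccggtcacgtggggggcgacgTTTCGCGCc
CDT1: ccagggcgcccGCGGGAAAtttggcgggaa
The stretches of E2F2 (chr1:23531238-23531305), MCM6 (chr2:135876492-135876625), POLE (chr12:132687343-132687390), MCM3 (chr6:52284879-52284946) and MCM7 (chr7:100101398-100101427) lie on the minus strand, and that of CDT1 (chr16:88803743-88803772) on the plus strand. The next 3 belong to members that did not pass and were chosen after their values were seen, to set beside the first 6.
PCNA: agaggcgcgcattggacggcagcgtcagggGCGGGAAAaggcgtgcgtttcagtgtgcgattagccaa
TYMS: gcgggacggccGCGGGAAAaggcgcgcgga
E2F1: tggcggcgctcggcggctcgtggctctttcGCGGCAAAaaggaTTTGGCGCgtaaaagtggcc
PCNA (chr20:5126644-5126711) and E2F1 (chr20:33686386-33686448) lie on the minus strand and TYMS (chr18:657603-657632) on the plus strand. CDT1, PCNA and TYMS hold the same 8 letters, GCGGGAAA, and their log2 folds per the authors' deposited table were -0.23 ± 0.09, -0.07 ± 0.07 and 0.01 ± 0.08.

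The CHR element, searched as TTTGAA, marks many genes of late cell cycle, and it was in 1 of 42 member promoters (2.38%), against 18 of 27 promoters (66.7%) of a list of mitosis and kinetochore genes and 9.61% of tested genes. The CCAAT sequence was in 54.8% of member promoters and 36.3% of those of tested genes. It was also in 54.8% of promoters of the other replication fork and origin factors and in 74.1% of those of the mitosis genes. The GC box, searched as GGGCGG, was in 69.0% of member promoters and 69.9% of those of tested genes.

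**Figure D2:**
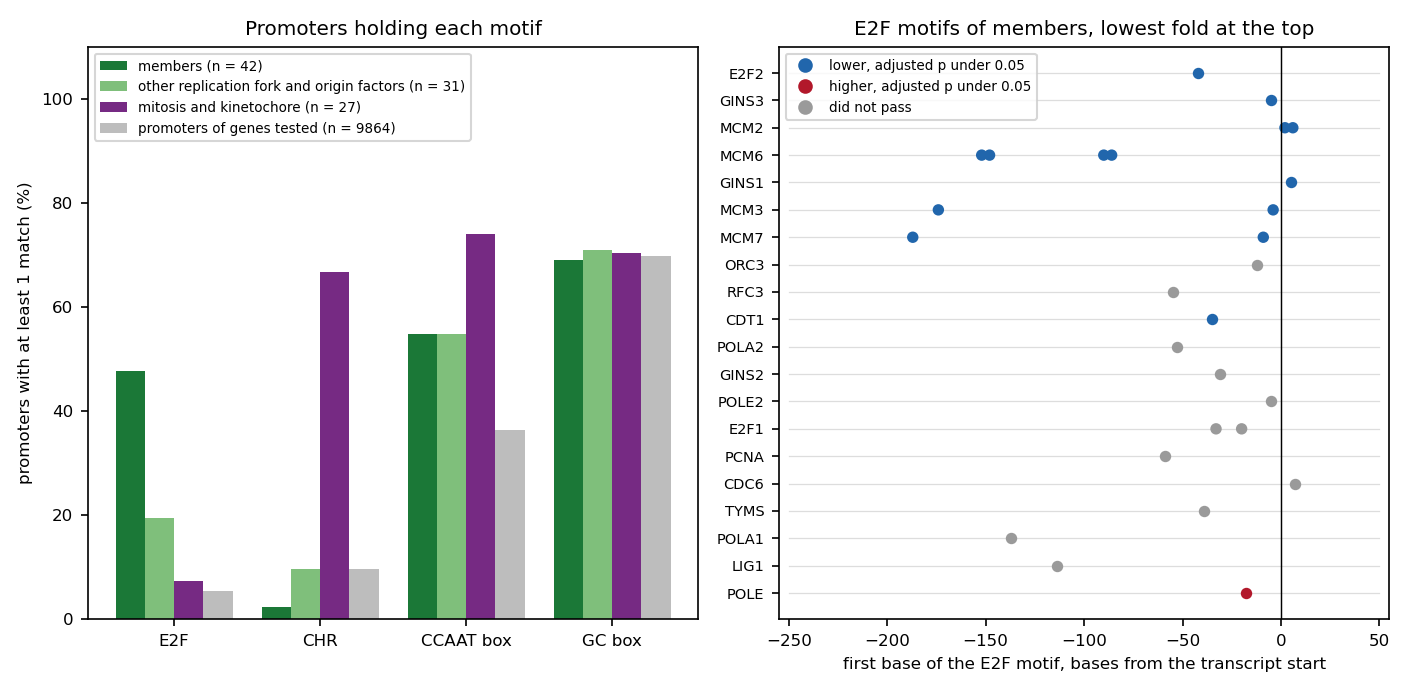
Left, the share of promoters (%) with at least 1 match to each motif in members, 2 other gene lists and all tested genes. Right, the first base of each E2F match in the 20 member promoters that hold one, in bases from the transcript start, with genes ordered by fold. The E2F bar is 47.6% in members and 5.42% in tested genes, while the CHR bar is 66.7% in mitosis genes and 2.38% in members.

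The replicative helicase fell in 5 of its 6 subunits. MCM2, a subunit that also binds histones, had a fitted mean count of 429.6 in parental and 288 in resistant cells, and a log2 fold of -0.58 ± 0.11 (adjusted p = 5.04e-07) per the authors' deposited table. MCM6 went from 280.3 to 195 and MCM5 from 636 to 463, with log2 folds of -0.52 ± 0.13 (adjusted p = 0.000325) and -0.46 ± 0.10 (adjusted p = 1.65e-05) per the authors' deposited table. In these 3 genes the resistant level was 67.0% to 72.8% of the parental one. MCM3 went from 985 to 778 and MCM7 from 1766 to 1412, with log2 folds of -0.34 ± 0.08 (adjusted p = 0.000113) and -0.32 ± 0.08 (adjusted p = 0.000342) per the authors' deposited table. The ring holds its subunit proteins in equal number, which transcript counts do not measure. MCM4 did not pass, with fitted counts of 636 and 626 and a log2 fold of -0.02 ± 0.09 (adjusted p = 0.902) per the authors' deposited table. Its 95% interval, from -0.20 to 0.15, does not overlap those of MCM2 (-0.78 to -0.37), MCM5 (-0.65 to -0.27) and MCM6 (-0.78 to -0.27), and it does overlap those of MCM3 (-0.49 to -0.19) and MCM7 (-0.48 to -0.17). The difference between subunits was not tested. Taken relative to neighbouring genes on their chromosomes, as described further on, MCM3 and MCM7 kept their calls while MCM2, MCM5 and MCM6 did not. On that scale MCM4, over 5 neighbours, stood at -0.13 and did not pass (adjusted p = 0.351). MCM2, MCM5 and MCM6 stood close to it or nearer 0, at -0.10, -0.12 and -0.0089, and MCM3 and MCM7 stood at -0.43 and -0.47.

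Of 8 genes that recognise origins, load the helicase or restrain loading, 1 was lower and 7 did not pass. CDT1, the loading factor that geminin restrains, went from a fitted count of 662 to 564, with a log2 fold of -0.23 ± 0.09 (adjusted p = 0.0370) per the authors' deposited table. That call was lost once folds were centred on the median of genes with a mean count of at least 50 (adjusted p = 0.0800), and was kept once they were centred on the median of all genes tested (adjusted p = 0.0216). CDC6, its partner in loading, stood at 196 and 195, with a log2 fold of -0.01 ± 0.14 and a 95% interval from -0.28 to 0.26 per the authors' deposited table. GMNN, which encodes geminin, did not pass at -0.14 ± 0.10 (adjusted p = 0.368), and neither did ORC1, the subunit whose level cycles with the cell cycle, at -0.18 ± 0.16 (adjusted p = 0.477), per the authors' deposited table. Both had 95% intervals that include 0. The other measured origin subunits also did not pass, with ORC2 at -0.15 ± 0.27, ORC5 at 0.07 ± 0.21 and ORC6 at 0.21 ± 0.12 per the authors' deposited table. ORC3 had a mean count of only 4.99 and an interval from -1.84 to 1.26, so that a change of 2-fold either way was not detectable at this depth.

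The GINS complex, which joins the helicase at firing, held 2 of the 4 largest called falls among these genes. GINS4 went from a fitted count of 269 to 152, a log2 fold of -0.82 ± 0.13 (adjusted p = 8.34e-09) per the authors' deposited table. GINS3 went from 100.2 to 63.0 and GINS1 from 172 to 120.2, with log2 folds of -0.67 ± 0.20 (adjusted p = 0.00488) and -0.52 ± 0.16 (adjusted p = 0.00462) per the authors' deposited table. GINS2 did not pass, at 592 in parental and 516 in resistant cells, with a log2 fold of -0.20 ± 0.10 (adjusted p = 0.140) per the authors' deposited table. CDC45, the partner of GINS in the active helicase, stood at -0.22 ± 0.14 (adjusted p = 0.254) and the firing factor MCM10 at -0.23 ± 0.29 (adjusted p = 0.638) per the authors' deposited table. All 6 genes of helicase activation thus had folds below 0, of which 3 passed. GINS1 lost its call relative to neighbouring genes within 5 Mb (adjusted p = 0.0560), and GINS2 gained one (adjusted p = 0.00818).

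Of 9 genes of polymerases and primase, 1 was lower, 1 was higher and 7 did not pass. POLD1, the catalytic subunit of polymerase delta, which copies the lagging strand, went from a fitted count of 261 to 196, a log2 fold of -0.41 ± 0.13 (adjusted p = 0.00793) per the authors' deposited table. POLE, the catalytic subunit of polymerase epsilon, which copies the leading strand, went from 252 to 319, a log2 fold of 0.34 ± 0.13 (adjusted p = 0.0250) per the authors' deposited table. It was the only member called higher, and relative to neighbouring genes its value turned to -0.11 and did not pass. The accessory subunits of polymerase delta did not pass, with POLD2 at -0.10 ± 0.06 (adjusted p = 0.272) and POLD3 at -0.36 ± 0.27 (adjusted p = 0.367) per the authors' deposited table. Polymerase alpha and primase, which lay down primers, did not pass either, with POLA1 at 0.10 ± 0.22, POLA2 at -0.22 ± 0.39 and PRIM2 at -0.05 ± 0.18 per the authors' deposited table. PRIM1 and the epsilon subunit POLE2 had mean counts of 11.3 and 21.7 and intervals from -1.18 to 0.95 and from -0.92 to 0.56.

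The sliding clamp and its loader passed in none of 6 genes. PCNA, the clamp that tethers polymerases to DNA, had fitted counts of 1746 and 1666 and a log2 fold of -0.07 ± 0.07 (adjusted p = 0.518) per the authors' deposited table. Its 95% interval ran from -0.20 to 0.06. The loader subunits stood at 0.33 ± 0.15 for RFC1, 0.03 ± 0.10 for RFC2, -0.25 ± 0.14 for RFC3, 0.02 ± 0.12 for RFC4 and -0.31 ± 0.13 for RFC5 per the authors' deposited table. RFC1 (adjusted p = 0.0789) and RFC5 (adjusted p = 0.0519) were nearest to the threshold per the authors' deposited table, on opposite sides of 0. RFC5 passed in 4 of the alternatives tried, among them adjustment over genes with a mean count of at least 50 (adjusted p = 0.0352).

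Of the replication protein A genes, which coat single-stranded DNA, RPA2 stood at 0.19 ± 0.15 (adjusted p = 0.399) and RPA3 at 0.16 ± 0.17 (adjusted p = 0.572) per the authors' deposited table. RPA1, the large subunit that every dividing cell needs, had a mean count of only 1.48 per the authors' deposited table, so no fold is given for it, and a count near 0 in these libraries of 3′ ends is not read as absence. FEN1, the flap nuclease that trims Okazaki fragments, went from a fitted count of 827 to 538, a log2 fold of -0.62 ± 0.09 (adjusted p = 1.13e-09) per the authors' deposited table. LIG1, the ligase that seals them, stood at 412 and 442 with a log2 fold of 0.10 ± 0.11 (adjusted p = 0.557) per the authors' deposited table. The intervals of FEN1 (-0.80 to -0.43) and LIG1 (-0.11 to 0.31) do not overlap, though both enzymes act in turn on the same fragments. FADS2, which lies on the same strand near the 3′ end of FEN1, had a log2 fold of 0.92 ± 0.23 per the authors' deposited table, opposite in sign to FEN1. Relative to neighbouring genes FEN1 stood at -0.23 and did not pass (adjusted p = 0.0560).

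Deoxynucleotide synthesis moved in 1 of 5 genes. RRM2, the small subunit of ribonucleotide reductase, whose supply limits the enzyme in S phase, had fitted counts of 292 in parental and 127 in resistant cells, so that the resistant level was 43.3% of the parental one. Its log2 fold of -1.21 ± 0.14 (adjusted p = 1.53e-15) per the authors' deposited table was the only called fold among the 49 that was 2-fold or larger. Relative to neighbouring genes, which were lower too, RRM2 stood at -0.14 and did not pass (adjusted p = 0.557). RRM1, the large subunit, stood at 117 and 116, with a log2 fold of -0.0041 ± 0.17 and a 95% interval from -0.35 to 0.34. Relative to neighbouring genes RRM1 stood at -0.14 as well and did not pass (adjusted p = 0.628). The difference between both subunits was not tested on either scale. Thymidylate synthase, TYMS, stood at 910 and 914, with a log2 fold of 0.01 ± 0.08 (adjusted p = 0.971) per the authors' deposited table. Thymidine kinase TK1 (-0.18 ± 0.10, adjusted p = 0.159) and the dUTPase gene DUT (0.07 ± 0.12, adjusted p = 0.735) did not pass per the authors' deposited table. The interval of TYMS ran from -0.15 to 0.17.

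Among regulators of entry into S phase, 1 of 4 passed. E2F2, a transcriptional activator of these genes, went from a fitted count of 85.2 to 48.5, a log2 fold of -0.81 ± 0.23 (adjusted p = 0.00240) per the authors' deposited table. E2F1, its close relative, stood at 112 and 106 with a log2 fold of -0.08 ± 0.17 (adjusted p = 0.805) per the authors' deposited table. CCNE1 and CCNE2 encode cyclin E, the partner of CDK2, and had log2 folds on opposite sides of 0, -0.30 ± 0.17 (adjusted p = 0.193) and 0.71 ± 0.37 (adjusted p = 0.160), neither of which passed per the authors' deposited table. CCNE2 had a mean count of 23.7 and an interval from -0.03 to 1.44.

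**Figure D3:**
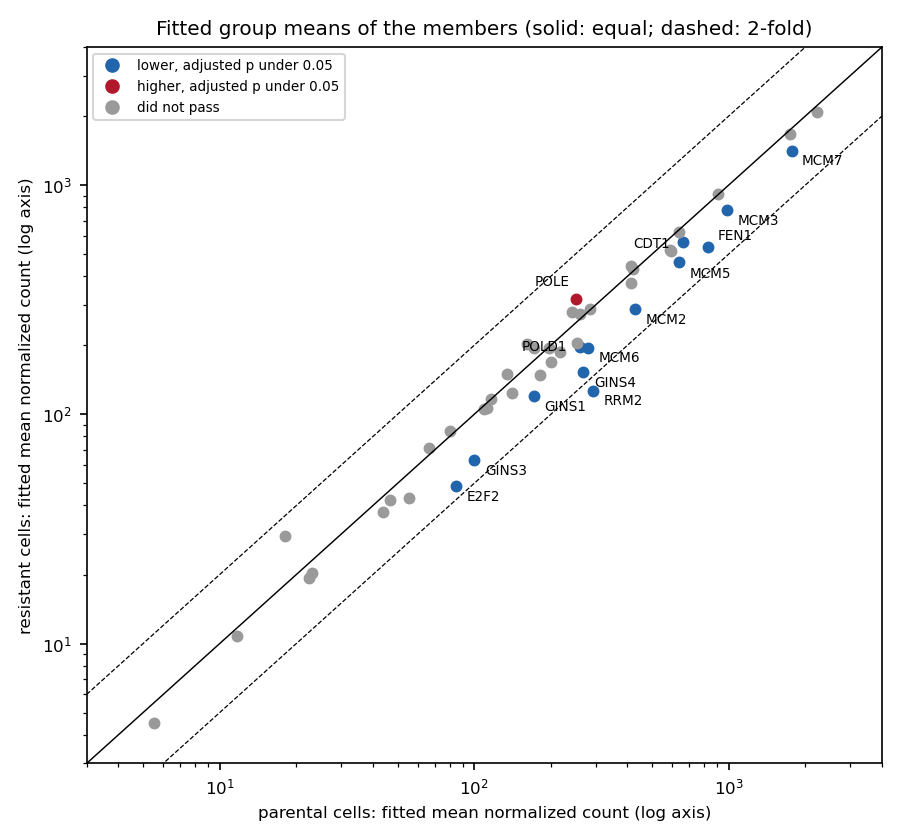
Fitted mean normalized counts of 48 members in parental (x axis) and resistant cells (y axis), both on log axes, with the 2-fold lines dashed. RRM2, from 292 to 127, is the only called gene beyond the lower 2-fold line, and the other genes called lower, from MCM7 to E2F2, lie between it and the line of equal counts.

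The largest falls differed in whether the neighbouring genes on the chromosome were lower as well. For each member the median log2 fold was taken over other genes with a mean count of at least 50 that start within 5 Mb. RRM2, on chromosome 2 from 10120698 to 10131419, had a neighbour median of -1.07 over 16 genes, close to its own fold. MCM6, on chromosome 2 from 135839626 to 135876426, had one of -0.52 over 11 genes. MCM2, on chromosome 3 from 127598223 to 127622436, had a neighbour median of -0.47 over 24 genes, and MCM5, on chromosome 22 from 35400063 to 35425430, one of -0.34 over 69 genes. FEN1, on chromosome 11 from 61792637 to 61797244, had a neighbour median of -0.39 over 126 genes. Of the 13 members called lower, these 5 (38.5%) had neighbour medians below -0.3, against 553 of all 1910 genes called lower with neighbours. Over all 49 members the count was 6 (12.2%), with POLA2 the other one, against 11.5% of all tested genes with neighbours. POLE, the gene called higher, lies on chromosome 12 from 132623753 to 132687365, among 13 neighbours with a median of 0.45. RFC1 on chromosome 4, which did not pass, had a neighbour median of 0.46.

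Another 7 falls were not shared by the neighbours. GINS4 on chromosome 8, GINS3 on chromosome 16 and E2F2 on chromosome 1 had neighbour medians of 0.01, -0.01 and 0.04. MCM7 on chromosome 7, MCM3 on chromosome 6, CDT1 on chromosome 16 and POLD1 on chromosome 19 had neighbour medians of 0.15, 0.09, 0.12 and 0.08, all above 0 while the genes fell. With each gene's fold taken relative to its neighbours, and the Wald test and its Benjamini-Hochberg adjustment repeated, these 7 genes kept their call, with log2 differences from -0.35 for CDT1 to -0.85 for E2F2. RRM2 then stood at -0.14 (adjusted p = 0.557), MCM2 at -0.10 (adjusted p = 0.557), MCM5 at -0.12 (adjusted p = 0.420), MCM6 at -0.0089 (adjusted p = 0.976), and POLE at -0.11 (adjusted p = 0.610). FEN1 at -0.23 and GINS1, whose neighbour median was -0.14, at -0.38, both with adjusted p = 0.0560, also lost their calls, so 7 of 14 calls were kept. Over all 3633 called genes with neighbours 79.2% kept theirs. Of the 13 members called lower 7 (53.8%) did, against 73.2% of all 1910 genes called lower with neighbours. GMNN (-0.41, adjusted p = 0.000644) and GINS2 (-0.32, adjusted p = 0.00818), which had not been called, passed relative to their neighbours. These 2 of 35 uncalled members (5.71%) stand beside 5.85% of all uncalled genes with neighbours. With a window of 10 Mb GMNN stood at -0.14 and did not pass (adjusted p = 0.378), while GINS1 kept its call (-0.44, adjusted p = 0.0197). The error of the neighbour median is not part of this test, and DNA copy number was not measured.

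**Figure D4:**
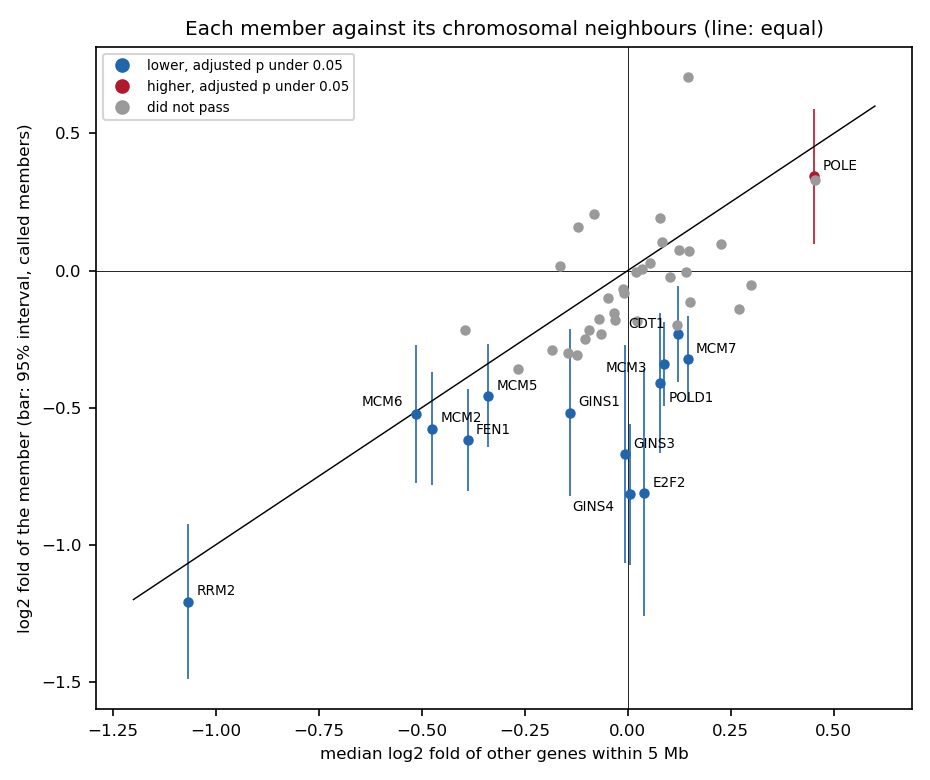
Log2 fold of each member (y axis, with 95% intervals for called members) against the median log2 fold of other genes within 5 Mb (x axis), with the line of equal values. RRM2, MCM6, MCM2, MCM5 and FEN1 lie left of -0.3 and near the line, whereas GINS4, GINS3 and E2F2 lie far below it at neighbour medians between -0.01 and 0.04.

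Lists of further genes of these processes were read beside the members. Among 36 tested genes for other replication fork and origin factors, 7 were lower and 1 higher per the authors' deposited table, and their median log2 fold was -0.11. The share called, 22.2%, was under the 28.2% of all genes tested. Largest among the falls per the authors' deposited table were the topoisomerase I gene TOP1 (-0.85 ± 0.13), the polymerase epsilon accessory subunit POLE4 (-0.64 ± 0.09) and the ribonuclease H2 subunit RNASEH2C (-0.56 ± 0.22). MCM9, which encodes a helicase of recombination repair, rose by 0.49 ± 0.19 per the authors' deposited table. Relative to neighbouring genes RNASEH2C (adjusted p = 0.636) and MCM9 (adjusted p = 0.597) did not pass, and the value of MCM9 turned below 0. TOP1 stood at -0.90 relative to its neighbours and kept its call (adjusted p = 3.8e-10). POLE4 stood at -0.22 relative to its neighbours and kept its call too (adjusted p = 0.0448). POLE, the catalytic subunit of the same polymerase, was called higher by its deposited fold. Relative to its neighbours POLE stood at -0.11 and did not pass (adjusted p = 0.610). Of 32 tested enzymes of other nucleotide synthesis and salvage, 6 were lower and 2 higher per the authors' deposited table, and the list median was -0.07. CAD, which starts pyrimidine synthesis, stood at -1.15 ± 0.11 (adjusted p = 1.23e-24) per the authors' deposited table, from a fitted count of 519 to 234. Relative to neighbouring genes, whose median was -0.66, it stood at -0.49 and kept its call (adjusted p = 4.95e-05). The purine synthesis genes ADSL (-0.60 ± 0.08) and IMPDH2 (-0.54 ± 0.10) also fell, and the kinase genes GUK1 (0.67 ± 0.07) and DCK (0.57 ± 0.19), which phosphorylate guanine nucleotides and salvaged deoxynucleosides, rose, per the authors' deposited table. ADSL stood at -0.21 relative to its neighbours and kept its call (adjusted p = 0.0321). IMPDH2 (-0.47, adjusted p = 4.23e-05), GUK1 (0.76, adjusted p = 8.35e-26) and DCK (0.67, adjusted p = 0.00274) kept theirs as well.

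The list of other E2F, pocket protein and DREAM complex genes had 20 tested, of which 3 were lower and 1 higher per the authors' deposited table, and the list median was -0.10. The share called, 20.0%, was under the 28.2% of all genes tested. E2F8, an atypical E2F that represses these targets, fell most, from a fitted count of 105 to 29.5, a log2 fold of -1.82 ± 0.24 (adjusted p = 1.6e-12) per the authors' deposited table. MYBL2 (-0.58 ± 0.09), which activates late cell cycle genes, and the S-phase cyclin CCNA2 (-0.39 ± 0.09) fell, and the histone-binding protein gene RBBP4 (0.53 ± 0.20) rose, per the authors' deposited table. RBBP4 did not pass relative to neighbouring genes (adjusted p = 0.0671). E2F8 (-1.25, adjusted p = 3.31e-06), MYBL2 (-0.59, adjusted p = 1.12e-10) and CCNA2 (-0.35, adjusted p = 0.000653) kept their calls on that scale. Among 10 tested D-type cyclins, their kinases and CDK inhibitors, 3 were higher and 1 lower per the authors' deposited table, and the list median was 0.23. That share called was 40.0%, against 28.2% of all genes tested. Of its 8 genes with a mean count of at least 50, 1 was lower and 2 were higher, where the background called was 41.5%. CDKN1A, which encodes an inhibitor of CDK2 with cyclin E, rose from a fitted count of 38.8 to 223, a log2 fold of 2.52 ± 0.20 (adjusted p = 2.17e-34) per the authors' deposited table. CDKN2A rose by 0.24 ± 0.07 and CCND1, the cyclin D gene that MAPK signalling induces, fell by 0.42 ± 0.08 on the log2 scale per the authors' deposited table. Relative to neighbouring genes neither passed (adjusted p = 0.125 for CDKN2A, whose value turned below 0, and 0.549 for CCND1). CDKN1A kept its call on that scale, at 2.53 (adjusted p = 1.48e-34).

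Among 32 tested genes of mitosis and the kinetochore, 16 were lower and 1 higher per the authors' deposited table, the list median was -0.37 and 29 folds lay below 0. Largest among the falls were CENPA (-1.23 ± 0.14), CCNB1 (-1.09 ± 0.08) and BUB1 (-0.98 ± 0.18), and ANLN rose (0.44 ± 0.13), per the authors' deposited table. Relative to neighbouring genes CENPA stood at -0.55 (adjusted p = 0.000633) and CCNB1 at -0.69 (adjusted p = 4.37e-18), both still called. BUB1 (adjusted p = 0.138) and ANLN (adjusted p = 0.349) did not pass relative to neighbouring genes. Calls made up 53.1% of mitosis genes and 28.6% of the 49 replication genes, against 28.2% of all genes tested. Among genes with a mean count of at least 50, as 28 mitosis genes and 40 replication genes were, the background was 41.5%. Relative to neighbours within 5 Mb, 16 of 32 mitosis genes and 9 of 49 replication genes were called. The mitosis calls on that scale include KIF20A (0.43) and CDC25C (0.65), which stood above 0, and the replication calls were all lower. Of all genes with neighbours, 2878 of 3633 called ones kept their call on that scale and 526 of 8989 uncalled ones gained one. The difference between both lists was not tested.

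**Figure D5:**
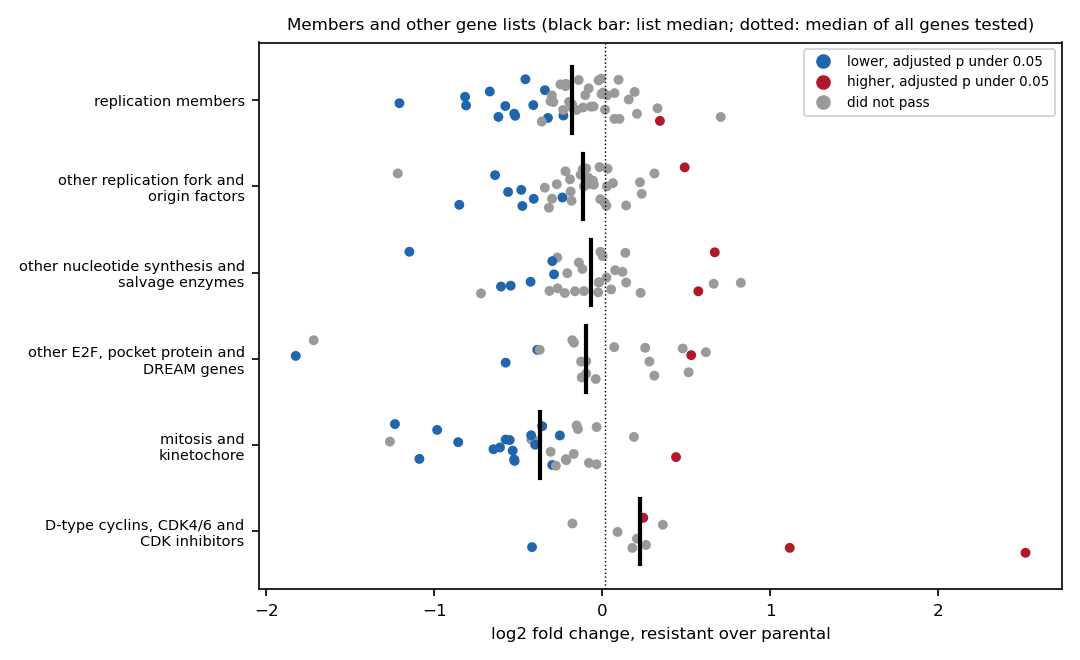
Log2 fold change of each gene (x axis) in the replication members and 5 other gene lists, coloured by call, with list medians as black bars and genes with a fitted count under 1 in a group left out. Mitosis genes sit lowest as a list, with a median of -0.37 beside -0.18 for the replication members, and the list of D-type cyclins and CDK inhibitors has a median of 0.23.

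Some counts may include reads of other genes. In GRCh38 annotation, 9 members have another gene with reads within 1000 bases inside or 500 bases beyond their 3′ end. Among these, PRIM1 lies on the same strand as NACA, which had a mean count of 6985 beside 11.3 for PRIM1 and a log2 fold of -0.0022 ± 0.06 per the authors' deposited table. CDT1 lies beside APRT, GINS1 beside NINL, RFC5 beside WSB2 and TYMS beside ENOSF1, all on the opposite strand, and the fold of APRT was -0.06 ± 0.07 and that of NINL 0.63 ± 0.32 per the authors' deposited table. For 9 members, namely PCNA, POLD2, RFC3, RFC5, RPA2, FEN1, RRM2, TYMS and DUT, annotated pseudogenes named for them could take reads, so their counts are uncertain to that extent.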

How the data were processed

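Polyadenylated RNA of 6 PC9 samples, 3 parental and 3 resistant, was sequenced from 3′ ends with a bulk form of MARS-seq, per the labels' protocols. The tools named in the submitters' processing notes are DESeq2, HTSeq, STAR and cutadapt, and the build is GRCh38 (hg38), while versions, settings, strand and the handling of molecular barcodes are not given in the sources used here. The file analysed is the results table of the comparison that the authors ran. Its mean normalized count is, per the file headers, a signal that averages all libraries. The log2 fold change and its standard error are also as deposited. The Wald statistic in the authors' deposited table is a score equal to fold over standard error. The p-value and the Benjamini-Hochberg adjusted p-value are those of the authors' deposited table, two-sided, and repeating the adjustment over 13494 genes gave them within 1.61e-15.

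The planned count test needs values per library, so the authors' Wald test was used in its place. Whether replicates are separate cultures is not said in the labels, so p-values reflect only how these samples vary, possibly for technical reasons. Members, roles, lists and motifs were chosen with earlier results of these data known. Fitted group means were derived from mean count and fold, and 95% intervals are normal intervals from the standard error. No fold is printed where a group's fitted count was under 1, which is 3 reads over 3 libraries. No intervals for counting error were computed. Named members are all 49. Of the other lists up to 3 rises and 3 falls among called genes with a mean count of at least 50 are named, and of the neighbours of 3′ ends FADS2, NACA, APRT and NINL were chosen after their values were seen.

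Gene positions came from GENCODE 29 by symbol, for all 49 members and 12639 tested genes (93.7%). Promoters came from RefSeq on GRCh38.p14. Sequence printed is upstream of the RefSeq start, cut to 30 bases where GENCODE has exons over more than 30 bases of it. Neighbour medians and adjustments were computed in Python 3.11.15 with pandas 2.3.3 and SciPy 1.17.1 and were tested on simulated data. Alternatives were a threshold of 0.01, other adjustments, and centring on genes with a mean count of at least 50, on all genes tested or on neighbours.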

Additional observations from a re-analysis of the deposited data

How the results depend on the processing

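The 14 calls among members, 13 lower and 1 higher, became 12 lower and 0 higher at an adjusted p of 0.01, and 13 lower and 1 higher with the adjustment over every gene with a p-value. They became 14 lower and 1 higher over genes with a mean count of at least 50, and 12 lower and 1 higher with folds centred on the median of genes with a mean count of at least 50. Centring on the median of all genes tested, chosen after seeing the data, gave 14 lower, with RFC5 added, and 1 higher. A Bonferroni adjustment over the genes tested left 5 lower (MCM2, MCM5, GINS4, FEN1 and RRM2) and 0 higher. Centring on neighbours within 5 Mb gave 9, all lower, with 0 higher. Windows of 2 Mb and 10 Mb, chosen after seeing the data, gave 11 lower with 1 higher, which was DUT, and 10 lower with 0 higher. RRM2, MCM2, MCM5, MCM6, FEN1 and POLE lost their calls in all 3 windows. GINS1 lost its call at 2 Mb and 5 Mb and kept it at 10 Mb (-0.44, adjusted p = 0.0197). GMNN passed at 2 Mb and 5 Mb and not at 10 Mb. RFC5 passed at 2 Mb (-0.49, adjusted p = 0.000681) and 10 Mb (-0.39, adjusted p = 0.00999), and over genes with a mean count of at least 50 (adjusted p = 0.0352). CCNE1 passed at 2 Mb alone (-0.43, adjusted p = 0.0407). MCM6 turned to 0.0642 at 2 Mb, and POLE to -0.11 at 5 Mb and -0.15 at 2 Mb, none of which passed. The median fold of the members stayed below 0, from -0.20 to -0.11. Among the other lists, calls among replication fork and origin factors went from 8 to 4 at an adjusted p of 0.01. With Bonferroni the calls were 3 for that list, 5 for nucleotide enzymes (8 as deposited), 2 for E2F and DREAM genes (4), 10 for mitosis genes (17) and 2 for D-type cyclins and CDK inhibitors (4). For the last list, centring on neighbours left 1. Bonferroni and 0.01 are stricter by construction, and for the neighbour windows the cause was not tested.

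No paired analysis was possible because the columns carry no values per library, so the replicate block could not be fitted. For the same reason leaving out each library, edgeR and DESeq2 on counts were not run. Depth limits ORC3, RPA1 and PRIM1 most, with mean counts of 4.99, 1.48 and 11.3.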
